A study of Mus musculus with 11 samples.

Results

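The 10 genes described here carry glucose from uptake to lactate and to the mitochondrial gate for pyruvate. They are the glucose transporters Slc2a1 and Slc2a3, hexokinase Hk2, the glycolytic enzymes Aldoa, Tpi1, Pgk1, Pgam1 and Eno1, lactate dehydrogenase Ldha and the pyruvate dehydrogenase kinase Pdk1. They were chosen by gene symbol out of the 24319 symbols in the tables, and all 10 were found and tested. Their RNA was read in 11 libraries of C57BL/6J mice. B-ALL stands for B cell acute lymphoblastic leukemia, and these libraries held leukemic cells from lymph nodes of animals with the genotype Ebf1+/- Pax5+/-. The 3 leukemic mice, numbered 686, 713 and 760, gave 2 libraries each, and the mouse was the replicate. The dHet proB libraries (3) held Ebf1+/- Pax5+/- Rag2-/- cells, grown for a short time from c-Kit+ fetal liver cells on OP9 stromal feeders in OptiMEM with FCS, PSG, β-mercaptoethanol, IL-7, Flt3 ligand and SCF. Of these, library 3 is numbered 3 in its title and 2 in its source name. The wt proB libraries (2) held Ebf1+/+ Pax5+/+ Rag2+/+ cells sorted from bone marrow as Fraction BC. The leukemic and dHet proB cells share the Ebf1 and Pax5 alleles, while Rag2 genotype, tissue, culture and leukemia change together and cannot be told apart.

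Cells take up glucose through transporters of the SLC2A family, trap it by phosphorylation with a hexokinase and split it with aldolase into triose phosphates, which later enzymes turn into pyruvate with a yield of ATP. Lactate dehydrogenase reduces pyruvate to lactate, which restores the NAD+ that glycolysis needs, and lactate leaves the cell through SLC16A transporters that need the chaperone basigin. PDK1 phosphorylates the pyruvate dehydrogenase complex and slows the entry of pyruvate carbon into the mitochondrial cycle. In B cell progenitors, glucose uptake is supported by IL-7 signalling and restrained by PAX5, and MYC and HIF1A are textbook activators of these genes.

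Levels are FPKM, which are scaled per transcript length, so they can be set side by side between genes. The depth of the libraries is unknown. Summed FPKM ran from 505261 to 638953 per library, and 9850 to 10595 genes reached an FPKM of 1. Each of 10 B lineage markers averaged at least 1 FPKM in every group, with sums of 6272 to 9035 in B-ALL, 8480 to 10920 in dHet proB and 7496 to 7894 in wt proB. Nothing in the labels ties the proB libraries to separate animals or cultures. Their p-values therefore reflect only how these libraries vary, which may be technical. In bulk RNA, a change in the share of a cell type and a change in RNA per cell cannot be told apart. Fold changes are differences of log2(FPKM + 1), with limma adjusted p-values from Benjamini-Hochberg over 11110 genes and a threshold of 0.05. By this test 2 of the 10 B lineage markers were lower and 0 higher in B-ALL against wt proB, beside 10% and 8.15% of all genes. Against dHet proB 4 were lower and 0 higher, beside 11% and 14.5%. Pax5 averaged 44.1 FPKM in B-ALL, 86.2 in dHet proB and 78.9 in wt proB, while Cd79a averaged 1639.5, 1634.3 and 1381.5. The part of these differences in the members' RNA was not tested.

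Leukemic cells had more RNA of the whole set than wt proB cells. All 10 members lay higher in each B-ALL library than in each wt proB library, an arrangement found in 23.5% of all genes tested. The limma test called 7 members higher and 0 lower, beside 8.15% of all tested genes called higher and 10% called lower. Since the members were chosen with earlier results of these data known, shares set beside their counts, here and below, are descriptive. Slc2a1, Slc2a3, Aldoa, Pgam1, Eno1, Ldha and Pdk1 passed, and Hk2, Tpi1 and Pgk1 did not. The members' median fold change was 1.05 on the log2 scale, where the median of all tested genes was -0.02. The count was 3 without mouse 686, 2 without wt proB library 1 and 1 without wt proB library 2. Calls over all genes fell with it, to 373 of 10990 higher without mouse 686, 123 of 10844 without wt proB library 1 and 61 of 10854 without library 2, beside 905 of 11110 with every library. Pdk1 alone stayed past the threshold in all 28 alternative settings, with adjusted p-values up to 0.0438. Eno1 missed it only without wt proB library 2 (adjusted p = 0.0571). Rescaling to TPM moved the median of all genes to -0.22, kept every member above 0 and left 5 calls.

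Leukemic cells also had more of this RNA than dHet proB cells. Here 8 members lay higher in every B-ALL library, beside 19.5% of all genes tested, and Slc2a1 and Hk2 overlapped. The test called 7 members higher and 0 lower, beside 14.5% of genes called higher and 11% called lower. They were Slc2a3, Tpi1, Pgk1, Pgam1, Eno1, Ldha and Pdk1. The members' median was 1.09, against 0.04 for all genes tested. Slc2a3, Pgam1, Eno1, Ldha and Pdk1 stayed past the threshold in all 28 alternatives. Pgk1 lost its call without mouse 686 (adjusted p = 0.0895), mouse 760 (0.0697) or dHet proB library 1 (0.0828). Tpi1 lost it without mouse 686 (adjusted p = 0.0660) or dHet proB library 1 (0.0678). Both comparisons use the same B-ALL libraries, so their folds are given side by side below and are not independent.

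**Figure D1:**
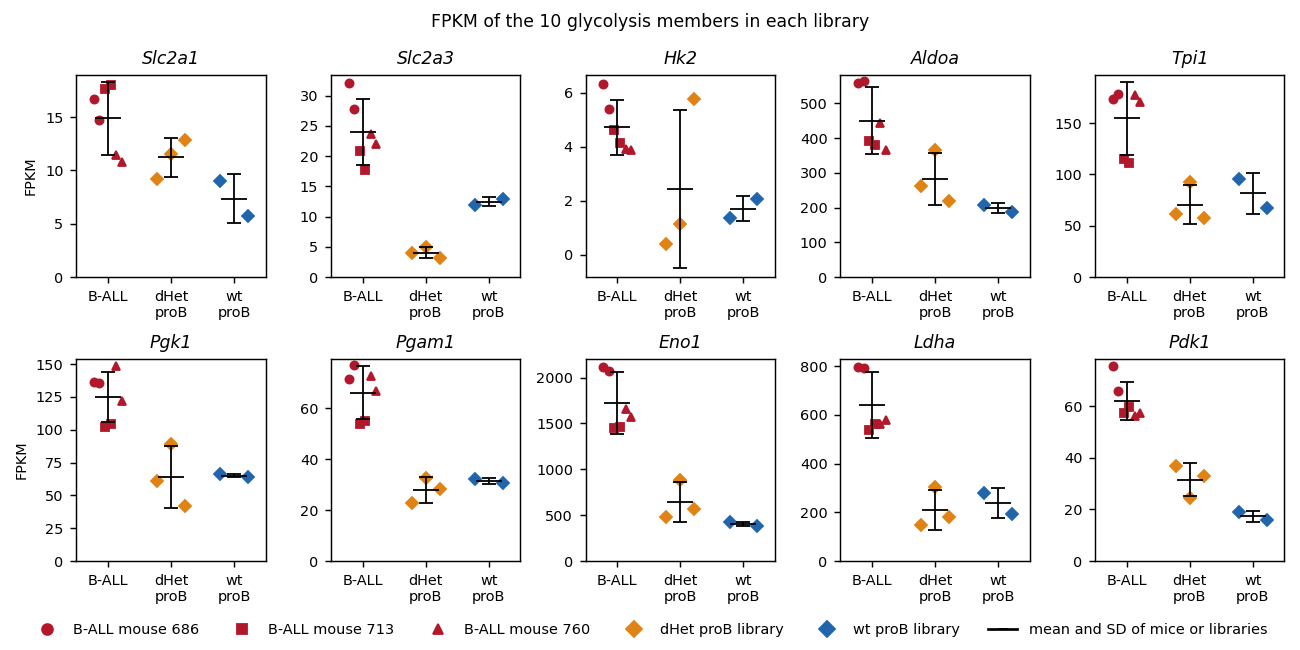
FPKM (linear axis from 0, except for Hk2, whose SD bar reaches below 0) of each member in every library. Red marks are B-ALL libraries with 1 shape per mouse, orange and blue diamonds are dHet proB and wt proB libraries, and black bars are the mean and SD over 3 mice, 3 libraries and 2 libraries. The B-ALL marks lie above all wt proB marks in each panel, and dHet proB reaches into the B-ALL range for Slc2a1 and Hk2.

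The pair of glucose transporters stood in a different order over the groups. Slc2a1, the widely expressed transporter GLUT1, had 15.7, 17.8 and 11.1 FPKM in mice 686, 713 and 760. It had 9.21, 11.6 and 12.9 FPKM in dHet proB libraries 1 to 3, and 9.001 and 5.72 FPKM in wt proB. The B-ALL and dHet proB ranges overlapped, and wt proB lay below both. The fold was 0.93 ± 0.27 (SE) in B-ALL against wt proB (adjusted p = 0.0474) and 0.37 ± 0.24 in B-ALL against dHet proB (adjusted p = 0.290). The call against wt proB was lost in 14 of 28 alternatives, among them without wt proB library 1 (1.22, adjusted p = 0.0910) or 2 (0.64, adjusted p = 0.319), mouse 686 (adjusted p = 0.127), mouse 713 (0.0843), dHet proB library 1 (0.0597) or dHet proB library 2 (0.0602).

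Slc2a3, the high-affinity transporter GLUT3, had 30.0, 19.3 and 22.8 FPKM in mice 686, 713 and 760, 4.04, 4.99 and 3.14 FPKM in dHet proB, and 11.9 and 13.0 FPKM in wt proB. The groups did not overlap, with B-ALL highest and dHet proB lowest. It rose by 2.30 ± 0.21 in B-ALL against dHet proB (adjusted p = 0.00075) and by 0.87 ± 0.24 against wt proB (adjusted p = 0.0406). The call against wt proB was lost in 11 of 28 alternatives, among them without mouse 686 (0.71, adjusted p = 0.118), mouse 760 (0.89, adjusted p = 0.0767) or dHet proB library 1 (adjusted p = 0.0625), and without wt proB library 1 (0.81, adjusted p = 0.208) or 2 (0.93, adjusted p = 0.194). The FPKM ratio of Slc2a3 over Slc2a1 was 0.981 to 2.06 in B-ALL, 0.244 to 0.438 in dHet proB and 1.33 to 2.27 in wt proB. In dHet proB, therefore, Slc2a1 was the more abundant of the pair in every library, while Slc2a3 was in both wt proB libraries and in 5 of 6 B-ALL libraries.

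Hk2, the inducible hexokinase, had the lowest mean of the members in every group and varied widely in dHet proB. Its values were 5.86, 4.38 and 3.88 FPKM in mice 686, 713 and 760. In dHet proB, libraries 1 to 3 had 0.394, 1.12 and 5.76 FPKM, and wt proB had 1.37 and 2.05 FPKM. Library 3 of dHet proB lay among the leukemic mice, and libraries 1 and 2 lay below both wt proB libraries. No comparison passed, at 1.07 ± 0.58 in B-ALL against wt proB (adjusted p = 0.229) and 1.06 ± 0.52 against dHet proB (adjusted p = 0.167). Without dHet proB library 3 both passed, at adjusted p = 0.0337 against wt proB and 0.00766 against dHet proB. The fold against wt proB stayed at 1.07, since dHet proB enters that comparison only through the filter and the spread shared by all groups. With only the 2 groups compared, Hk2 and Pgk1 gained a call against wt proB (adjusted p = 0.0309 and 0.0198), and Slc2a1 lost its call (0.0690). In the same order of dHet proB libraries, Myc had 9.39, 42.3 and 290 FPKM, and the sum of 10 proliferation markers was 1154, 1894 and 688.5 FPKM. The part of either in the Hk2 values was not tested.

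Of the enzymes that split and oxidise the sugar, Aldoa, which encodes aldolase A, had 561, 386 and 405 FPKM in mice 686, 713 and 760. It had 263, 364.5 and 219 FPKM in dHet proB and 208 and 188 FPKM in wt proB. All B-ALL libraries were higher than all others, though dHet proB library 2 came close to the lowest of them, at 365.8 FPKM. Aldoa rose by 1.16 ± 0.26 in B-ALL against wt proB (adjusted p = 0.0195) and did not pass against dHet proB (0.68 ± 0.23, adjusted p = 0.0619). The call against wt proB was lost without mouse 686 (adjusted p = 0.0592) and without wt proB library 1 (0.103) or 2 (0.162). Without dHet proB library 2, Aldoa passed against dHet proB (0.88, adjusted p = 0.0242).

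Tpi1, triosephosphate isomerase, had 176, 113 and 174 FPKM in mice 686, 713 and 760, 61.9, 92.6 and 57.6 FPKM in dHet proB, and 95.7 and 67.4 FPKM in wt proB. Mouse 713 lay nearer to the proB libraries than the other mice did. The fold was 1.12 ± 0.26 in B-ALL against dHet proB (adjusted p = 0.0179) and 0.91 ± 0.29 in B-ALL against wt proB (adjusted p = 0.0623). Without mouse 713 the comparison with wt proB passed (1.11, adjusted p = 0.0260), as it did without dHet proB library 2 (0.91, adjusted p = 0.0447).

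Pgk1, the phosphoglycerate kinase that makes the pathway's earliest ATP, had 136, 103 and 135 FPKM in mice 686, 713 and 760, 60.7, 89.3 and 42.0 FPKM in dHet proB, and 66.2 and 64.1 FPKM in wt proB. The wt proB libraries lay inside the dHet proB range, and B-ALL lay above both. Pgk1 rose by 1.01 ± 0.26 against dHet proB (adjusted p = 0.0271) and did not pass against wt proB (0.91 ± 0.29, adjusted p = 0.0635), where it passed without dHet proB library 2 (adjusted p = 0.0251) or 3 (0.0268). Pgam1, phosphoglycerate mutase, had 74.1, 54.4 and 69.6 FPKM in the mice, 22.6, 32.7 and 28.4 FPKM in dHet proB, and 32.4 and 30.5 FPKM in wt proB. It rose against both, by 1.22 ± 0.18 against dHet proB (adjusted p = 0.00415) and by 1.04 ± 0.20 against wt proB (adjusted p = 0.0119). The call against wt proB was lost without wt proB library 1 (adjusted p = 0.0870) or 2 (0.133).

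Eno1, enolase 1, was the most abundant member in every library and, of the 10, changed most against wt proB. It had 2096, 1457 and 1614 FPKM in mice 686, 713 and 760, 476, 885 and 573 FPKM in dHet proB, and 424 and 388 FPKM in wt proB. Ranked by FPKM among all genes of a library, it stood at place 14 to 34 in B-ALL, 65 to 152 in dHet proB and 176 to 183 in wt proB. It rose by 2.07 ± 0.29 against wt proB (adjusted p = 0.00337) and by 1.45 ± 0.26 against dHet proB (adjusted p = 0.00811). The ratio of Eno1 over Pgk1, which acts 2 steps earlier, was 11.1 to 15.5 in B-ALL, 7.85 to 13.7 in dHet proB and 6.05 to 6.41 in wt proB. Enolase RNA was thus high in B-ALL also relative to another member, though dHet proB library 3, at 13.7, lay within the B-ALL range.

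Ldha, the lactate dehydrogenase subunit that favours lactate formation, had 795, 551 and 572 FPKM in mice 686, 713 and 760. It had 149, 302 and 181 FPKM in dHet proB and 281 and 196 FPKM in wt proB. The proB groups overlapped, and every leukemic library was above both. Ldha rose by 1.64 ± 0.29 against dHet proB (adjusted p = 0.00796) and by 1.42 ± 0.33 against wt proB (adjusted p = 0.0227). The call against wt proB was lost without mouse 686 (adjusted p = 0.0708) and without wt proB library 1 (0.0788) or 2 (0.196). Ldhb, the other common subunit, had 0.514 ± 0.172 FPKM in B-ALL, 0.745 ± 0.413 FPKM in dHet proB and 17.0 ± 3.43 FPKM in wt proB (SD, n = 3, 3 and 2). Against wt proB it fell in B-ALL (log2 fold -3.57, adjusted p = 0.000221) and in dHet proB (-3.38, adjusted p = 0.000241). The ratio of Ldha over Ldhb was 766 to 2460 in B-ALL, 128 to 894 in dHet proB and 13.4 to 14.4 in wt proB. Ldhb was near the floor in B-ALL (0.248 to 0.737 FPKM) and dHet proB (0.338 to 1.16 FPKM), so these ratios rest on small values. The libraries of mouse 686 gave 1271 and 2460 from Ldha of 798 and 793 FPKM. The ratio of dHet proB library 2, at 894, lay within the B-ALL range.

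Pdk1 had 70.6, 58.5 and 56.8 FPKM in mice 686, 713 and 760, 36.9, 24.4 and 33.1 FPKM in dHet proB, and 18.9 and 15.8 FPKM in wt proB. The groups did not overlap and stepped down in that order. It rose by 1.78 ± 0.21 against wt proB (adjusted p = 0.00144) and by 0.97 ± 0.19 against dHet proB (adjusted p = 0.00984). Its relative Pdk2 went the other way, at 1.501 ± 2.17 FPKM in B-ALL, 8.21 ± 4.61 FPKM in dHet proB and 20.3 ± 1.56 FPKM in wt proB. Pdk2 fell against wt proB (-3.43, adjusted p = 0.0143) and against dHet proB (-2.05, adjusted p = 0.0454), calls lost in 3 and 12 of 28 alternatives.

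**Figure D2:**
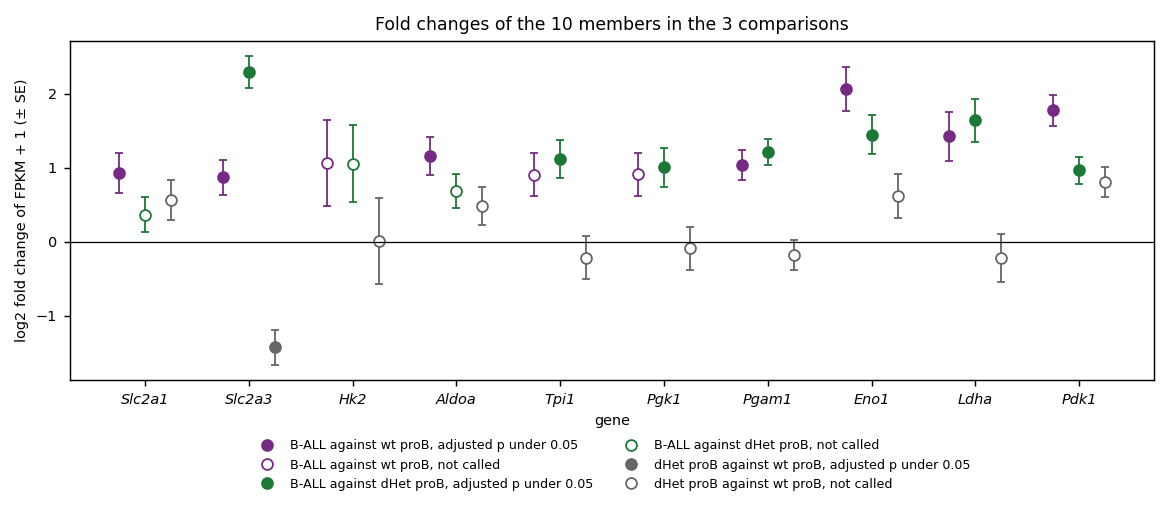
Log2 fold changes of FPKM + 1 with SE bars for the 10 members (horizontal axis) in B-ALL against wt proB (purple), B-ALL against dHet proB (green) and dHet proB against wt proB (grey), with filled circles for an adjusted p under 0.05. All B-ALL folds are above 0, up to 2.07 for Eno1 against wt proB and 2.30 for Slc2a3 against dHet proB, and among the grey circles the filled one is Slc2a3 at -1.43.

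The promoter windows of the members with the largest rises against wt proB are shown because those RNAs rose in B-ALL and MYC and HIF1A bind short known motifs. RefSeq windows on GRCm38.p6 run from 250 bases before a transcript start to 50 after it, and 9 members had 15 of them (Slc2a3 had none). The motifs searched on both strands were CACGTG, the E-box bound by MYC with MAX, and ACGTG and GCGTG, the core of the hypoxia response element. CACGTG holds ACGTG on both strands, so the core was also counted outside CACGTG. Capitals mark every match in the following windows of Ldha (chr7:46845554-46845853, plus strand), Eno1 (chr4:150236947-150237246, plus strand) and Pdk1 (chr2:71872974-71873273, plus strand).
Ldha: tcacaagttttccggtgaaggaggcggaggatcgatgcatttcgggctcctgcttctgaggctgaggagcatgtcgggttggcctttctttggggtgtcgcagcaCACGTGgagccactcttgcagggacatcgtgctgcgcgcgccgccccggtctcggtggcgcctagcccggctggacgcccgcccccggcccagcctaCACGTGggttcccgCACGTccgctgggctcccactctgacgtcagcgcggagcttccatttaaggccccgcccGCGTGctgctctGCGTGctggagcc
Eno1: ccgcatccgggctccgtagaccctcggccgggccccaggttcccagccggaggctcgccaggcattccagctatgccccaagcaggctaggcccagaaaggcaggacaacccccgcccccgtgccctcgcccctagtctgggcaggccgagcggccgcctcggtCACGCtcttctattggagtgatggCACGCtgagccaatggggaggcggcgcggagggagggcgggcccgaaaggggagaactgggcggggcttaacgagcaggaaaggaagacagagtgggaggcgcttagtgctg
Pdk1: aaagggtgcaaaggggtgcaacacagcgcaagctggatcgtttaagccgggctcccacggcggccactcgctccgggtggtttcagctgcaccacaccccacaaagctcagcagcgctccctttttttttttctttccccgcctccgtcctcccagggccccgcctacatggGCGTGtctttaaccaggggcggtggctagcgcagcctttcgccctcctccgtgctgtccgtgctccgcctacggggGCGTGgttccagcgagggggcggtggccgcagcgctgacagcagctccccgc
Ldha was the only member with CACGTG, in copies that begin 145 and 48 bases before the start. Ldha, Eno1 and Pdk1 have other windows that are not shown. The other Ldha window held no CACGTG, and the other Pdk1 window held no motif. That is 1 of 9 members with a window (11.1%), beside 8.09% of all symbols in the table and 12.1% of the genes tested. By window the share was 6.67%, beside 7.15% of all windows and 10.2% of those of tested genes. The core outside CACGTG was in 8 of 9 members (88.9%), with Tpi1 lacking it, beside 43.3% of all symbols and 64.7% of the genes tested. By window it was in 80%, beside 40.4% and 58.8%. The members' windows were also rich in CG dinucleotides, with a median of 24 per window, beside 7 in all windows and 21 in those of tested genes. These matches are descriptions of the letters and were not measured as bound sites.

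Between the proB groups, 4 members lay higher in every dHet proB library than in every wt proB library (Slc2a1, Aldoa, Eno1 and Pdk1) and 1 lay lower (Slc2a3). All genes showed these arrangements at 18.9% and 24.1%. In dHet proB against wt proB the limma test called 0 members higher and 1 lower, beside 2.18% and 6.5% of all genes, and 2 members had an unadjusted p under 0.05. The member called was Slc2a3, which fell by 1.43 ± 0.24 (adjusted p = 0.00814). That call was lost without wt proB library 1 (adjusted p = 0.110) or 2 (0.125). The other member was Pdk1, at 0.81 ± 0.21 (adjusted p = 0.0509), which passed in 7 of 28 alternatives and without dHet proB library 2 reached 0.98 (adjusted p = 0.0201). The members' median was -0.04, the same as that of all genes. By group means, 5 members ran in the order B-ALL, dHet proB, wt proB (Slc2a1, Hk2, Aldoa, Eno1 and Pdk1) and 5 in the order B-ALL, wt proB, dHet proB. Within dHet proB, library 2 was highest for 7 of the 10 members, and it also had the highest proliferation marker sum. Whether that sum plays a part was not tested.

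The list held 33 other genes of glucose uptake and glycolysis. In B-ALL against wt proB, 2 of the 20 that could be tested rose and 1 fell, with a median of 0.32, near the 8.15% and 10% of all genes. Gpi1, the isomerase between the hexokinase and phosphofructokinase steps, had 168 ± 22.5 FPKM in B-ALL, 99.7 ± 12.8 FPKM in dHet proB and 84.1 ± 8.02 FPKM in wt proB, and rose by 0.99 (adjusted p = 0.00903). Pfkm, a phosphofructokinase subunit, rose by 0.91 (adjusted p = 0.0460), a call lost in 11 of 28 alternatives. The muscle mutase Pgam2 fell by 2.12 (adjusted p = 0.00244), to 0.515 ± 0.501 FPKM in B-ALL against 5.37 ± 0.624 FPKM in wt proB. The calls among the 20 numbered 0 without wt proB library 1, 1 without wt proB library 2, and 5 without library 2 of mouse 713 or of mouse 760. Hk1, the constitutive hexokinase, had 17.5 ± 4.38 FPKM in B-ALL, 17.7 ± 2.47 FPKM in dHet proB and 18.4 ± 1.16 FPKM in wt proB and passed in no comparison (adjusted p = 0.796 to 0.921). Its relative Hk3, outside the test, had means of 0.0982 FPKM in B-ALL, 0 FPKM in dHet proB and 0.415 FPKM in wt proB.

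Against dHet proB, 7 of these 20 rose in B-ALL and 0 fell, with a median of 0.40, beside 14.5% and 11% of all genes. They were Slc2a6, Adpgk, Gpi1, Pfkl, Pfkp, Eno3 and Pkm. The transporter gene Slc2a6 had 9.91 ± 1.71 FPKM in B-ALL and 1.19 ± 1.12 FPKM in dHet proB (2.43, adjusted p = 0.00374). Pfkl, the liver-type phosphofructokinase, had 68.6 ± 23.7 FPKM in B-ALL and 28.6 ± 6.24 FPKM in dHet proB (1.19, adjusted p = 0.0177), and Pfkp rose by 0.88 (adjusted p = 0.0127). Eno3, the muscle enolase, rose by 1.43 (adjusted p = 0.00757), and Gpi1 by 0.75 (adjusted p = 0.0138). Pkm, which makes pyruvate, had 762.4 ± 165 FPKM in B-ALL, 374 ± 168 FPKM in dHet proB and 331 ± 14.2 FPKM in wt proB. It passed against dHet proB (1.10, adjusted p = 0.0376, a call lost in 10 of 28 alternatives) and not against wt proB (1.18, adjusted p = 0.0520), where 8 of 28 alternatives gave a call, with adjusted p-values down to 0.0148. Gapdh, between Tpi1 and Pgk1, passed against neither (545 ± 102 FPKM in B-ALL, 294.5 ± 165 FPKM in dHet proB and 311 ± 78.7 FPKM in wt proB; adjusted p = 0.0984 and 0.246). Without dHet proB library 2, Gapdh passed against dHet proB (1.46, adjusted p = 0.0250), as it did in 2 of 28 alternatives in all. Without mouse 686 the count was 4 of 20. In dHet proB against wt proB, 3 of the 20 fell and 0 rose, beside 6.5% and 2.18% of all genes. They were Slc2a6 (-1.87, adjusted p = 0.0225), Pgam2 (-1.5, adjusted p = 0.0135) and Adpgk (-1.15, adjusted p = 0.0206). These 3 calls became 0 when either wt proB library was left out.

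**Figure D3:**
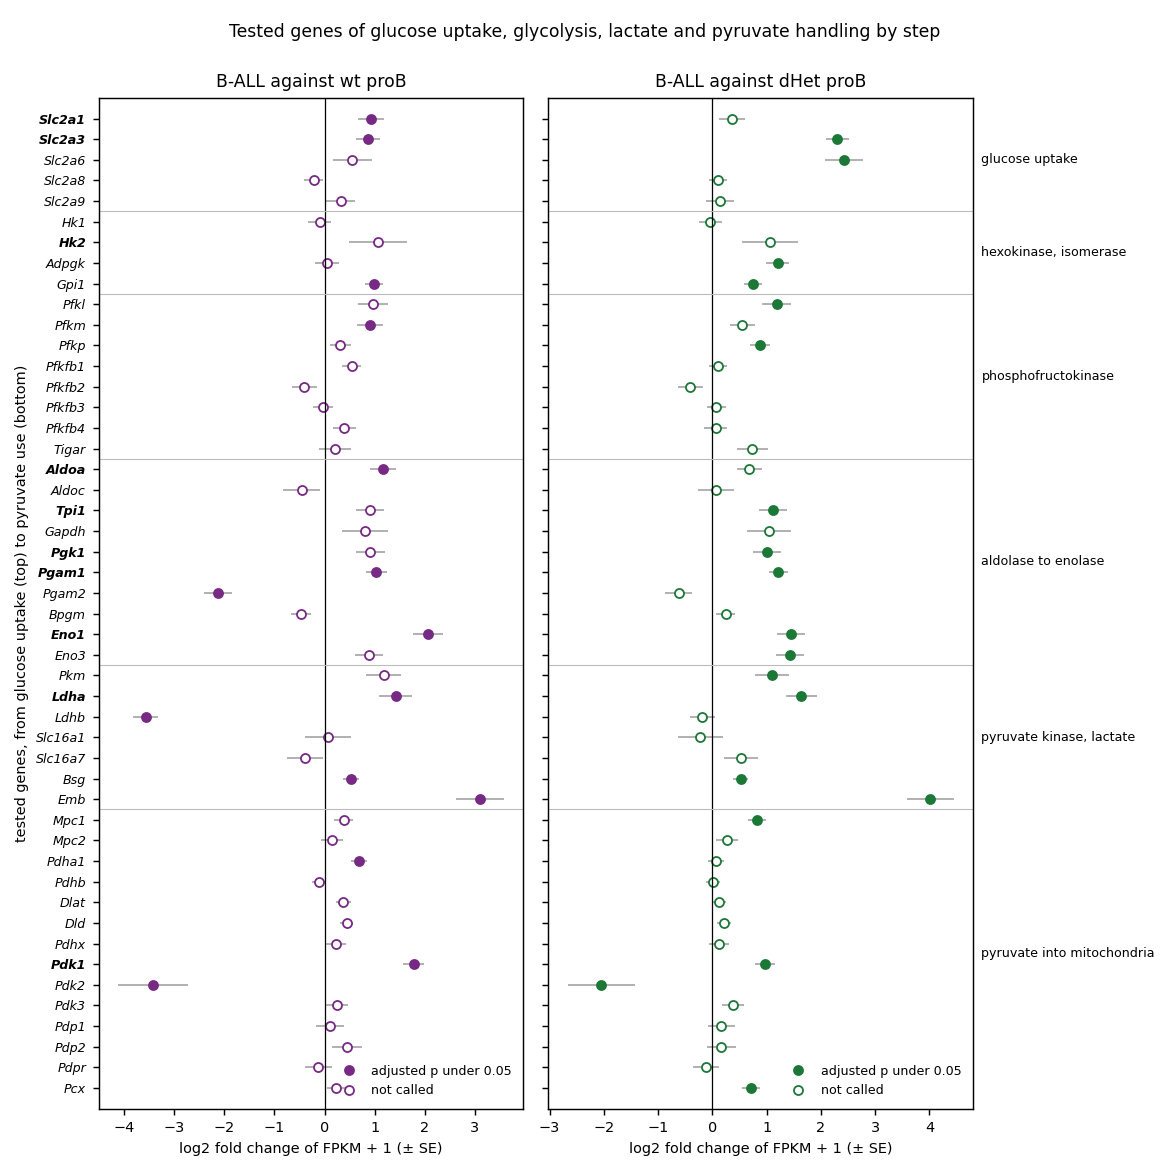
Log2 fold changes of FPKM + 1 with SE bars for all tested genes of uptake, glycolysis, lactate and pyruvate handling, ordered by step from top to bottom, in B-ALL against wt proB (left) and B-ALL against dHet proB (right), with members in bold and filled circles for an adjusted p under 0.05. Members from Aldoa to Ldha lie between 0.68 and 2.07, while isoforms such as Ldhb (-3.57 against wt proB), Pgam2 (-2.12) and Pdk2 (-3.43) lie to the left.

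Downstream of pyruvate, 18 of 23 genes of lactate and pyruvate handling were tested. In B-ALL against wt proB 3 rose and 2 fell, beside 8.15% and 10% of all genes. In B-ALL against dHet proB 4 rose and 1 fell, beside 14.5% and 11%. The lactate exporter Slc16a1 had 75.1 ± 34.8 FPKM in B-ALL, 85.5 ± 33.1 FPKM in dHet proB and 67.0 ± 16.1 FPKM in wt proB and passed in no comparison (adjusted p = 0.725 to 0.932). Slc16a3, an exporter of highly glycolytic cells, averaged under 1 FPKM in all 3 groups and was not tested. The transporters' chaperones did pass. Bsg had 310 ± 13.0 FPKM in B-ALL, 216 ± 24.3 FPKM in dHet proB and 214 ± 10.8 FPKM in wt proB, and rose by 0.52 against dHet proB (adjusted p = 0.0287) and by 0.53 against wt proB (adjusted p = 0.0493), calls lost in 11 and 20 of 28 alternatives. Emb, the embigin partner of SLC16A transporters, had 120 ± 30.8 FPKM in B-ALL, 7.31 ± 4.33 FPKM in dHet proB and 12.8 ± 0.996 FPKM in wt proB, and rose by 4.01 (adjusted p = 0.00138) and 3.10 (adjusted p = 0.00496). Pdha1, the catalytic subunit that PDK1 phosphorylates, rose by 0.69 against wt proB (adjusted p = 0.0258), and the pyruvate carrier subunit Mpc1 by 0.82 against dHet proB (adjusted p = 0.0130). In dHet proB against wt proB 0 of the 18 rose and 1 fell (Ldhb), beside 2.18% and 6.5% of all genes. The 5 calls of this list against wt proB became 3 without mouse 686 or 760 and 1 without either wt proB library. Those against dHet proB became 2 without mouse 686 or dHet proB library 1, and 3 without dHet proB library 3 or either wt proB library.

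Of the side branches, 8 pentose phosphate genes were tested. In B-ALL 2 rose and 0 fell against wt proB, beside 8.15% and 10% of all genes. Against dHet proB 3 rose and 0 fell, beside 14.5% and 11%. Tkt, transketolase, had 214 ± 39.6 FPKM in B-ALL, 114 ± 25.4 FPKM in dHet proB and 96.8 ± 12.6 FPKM in wt proB, and rose by 0.92 against dHet proB (adjusted p = 0.0172) and by 1.13 against wt proB (adjusted p = 0.0149). Pgd, which yields NADPH, rose by 0.66 (adjusted p = 0.0171) and 0.67 (adjusted p = 0.0298). Taldo1, transaldolase, fell by 0.75 in dHet proB against wt proB (adjusted p = 0.0180). None of the 8 stayed called in B-ALL against wt proB without either wt proB library, or against dHet proB without mouse 686 or dHet proB library 1, and 1 did against wt proB without mouse 686 or 760. The call of Taldo1 was lost without dHet proB library 1 or either wt proB library. Of 3 gluconeogenesis genes tested, G6pc3 rose in B-ALL against dHet proB (1.28, adjusted p = 0.00639) and wt proB (1.23, adjusted p = 0.0121). Pck2, the mitochondrial PEP carboxykinase, rose against wt proB in B-ALL (1.47, adjusted p = 0.00776) and in dHet proB (1.19, adjusted p = 0.0262). The calls of both genes against wt proB were lost without either wt proB library, and that of Pck2 in dHet proB also without dHet proB library 1 or 3.

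Of 16 tested regulators of these genes, 1 rose and 1 fell in B-ALL against wt proB, beside 8.15% and 10% of all genes. The counts were 1 and 1 in B-ALL against dHet proB, beside 14.5% and 11%, and 0 and 1 in dHet proB against wt proB, beside 2.18% and 6.5%. Myc had 342 ± 119 FPKM in B-ALL, 114 ± 154 FPKM in dHet proB and 75.5 ± 10.0 FPKM in wt proB and did not pass, at 2.69 against dHet proB (adjusted p = 0.0887) and 2.10 against wt proB (adjusted p = 0.229). Without dHet proB library 3, Myc passed both against dHet proB (3.94, adjusted p = 0.00726) and against wt proB (2.10, adjusted p = 0.0489), and 3 of 28 alternatives gave it a call in each comparison. Hif1a had 22.8 ± 1.39 FPKM in B-ALL, 24.0 ± 5.92 FPKM in dHet proB and 27.4 ± 7.26 FPKM in wt proB (adjusted p = 0.519 to 0.896). Epas1, its relative HIF-2α, had 1.89 ± 0.379 FPKM in B-ALL, 0.360 ± 0.0234 FPKM in dHet proB and 0.116 ± 0.0822 FPKM in wt proB and was the regulator called higher in B-ALL (adjusted p = 0.00486 and 0.00290). It passed the filter on low values through its B-ALL levels alone, so it could enter the test only by being high there. Arrdc4, an arrestin that restrains glucose uptake, fell against wt proB in B-ALL (-1.51, adjusted p = 0.00162) and in dHet proB (-1.75, adjusted p = 0.00102). Arnt, the HIF partner, fell by 0.56 in B-ALL against dHet proB (adjusted p = 0.0430), a call lost in 14 of 28 alternatives. The count against wt proB was 4 of 16 in B-ALL without dHet proB library 3, and 2 of 16 in dHet proB without its library 1.

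Hypoxia-response genes outside glycolysis went in both directions. Of 12 tested, 2 rose and 1 fell in B-ALL against wt proB, beside 8.15% and 10% of all genes. In B-ALL against dHet proB 1 rose and 3 fell, beside 14.5% and 11%. In dHet proB against wt proB 1 rose and 1 fell, beside 2.18% and 6.5%. Higd1a (0.74, adjusted p = 0.0226) and the oxidase gene Ero1l (0.68, adjusted p = 0.0439) rose in B-ALL against wt proB. These calls were lost in 5 and 14 of 28 alternatives. Adrenomedullin, Adm, fell by 2.39 both in B-ALL (adjusted p = 0.000667) and in dHet proB (adjusted p = 0.000737) against wt proB. Bnip3, a mitophagy gene, had 14.1 ± 4.60 FPKM in B-ALL, 78.3 ± 12.6 FPKM in dHet proB and 18.5 ± 4.37 FPKM in wt proB. It fell by 2.43 in B-ALL against dHet proB (adjusted p = 0.00146) and rose by 2.03 in dHet proB against wt proB (adjusted p = 0.00495). Kdm3a, a histone demethylase, fell by 1.03 and Ankrd37 rose by 1.47 in B-ALL against dHet proB (adjusted p = 0.00513 and 0.00461). With either wt proB library left out, Adm and Arrdc4 dropped below the filter, which they had passed through wt proB alone, and no other gene of this list or of the regulators passed against wt proB, in B-ALL or in dHet proB. Without mouse 686, 1 of the 12 passed in B-ALL against wt proB.

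Among the 3 leukemic mice, the limma F test on all 11 libraries called 0 of 10 members, beside 22.3% of all genes tested. At an unadjusted p under 0.05 there were 3 members (Slc2a1, Slc2a3 and Tpi1) and 3830 of 11293 genes. Mouse 686 was highest for 9 members and mouse 713 lowest for 7, and the exception at the top was Slc2a1, highest in mouse 713. The highest mouse exceeded the lowest by 1.24-fold (Pdk1) to 1.55-fold (Slc2a1) on the FPKM + 1 scale. Each member differed less between the libraries of a mouse, from -0.29 (Pgk1, mouse 760) to 0.10 (Pgam1, mouse 686) on the log2 scale for library 2 minus library 1. With the 6 B-ALL libraries alone, an alternative chosen after seeing the data, 9 of 10 members and 5073 of 10640 genes passed, with Pdk1 the exception (adjusted p = 0.0571). Without dHet proB library 2 the count was 4, and without library 3 it was 1. With every library 2513 of 11293 genes passed, and the all-gene counts of these settings are not given here. Mouse 713 also had the highest sums of red cell (399 and 501 FPKM) and stromal markers (21.9 and 20.8 FPKM), against 7.83 to 127 FPKM and 0.166 to 0.956 FPKM in the other mice. The red cell sum was mainly Hba-a1 (218 and 277 FPKM) and Hbb-b1 (173 and 214.5 FPKM). The stromal sum was mainly Fn1, the fibronectin gene (20.5 and 18.7 FPKM), with Lum at 0. Mouse 686 had the highest myeloid marker sums (264 and 262 FPKM), against 29.6 to 131 FPKM in the other mice. That sum was mainly Lyz2 (204 and 204.5 FPKM). Its B lineage marker sums were the lowest (6272 and 6280 FPKM), against 7745 to 9035 FPKM in the other mice. The part of these transcripts in the differences between mice was not tested.

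**Figure D4:**
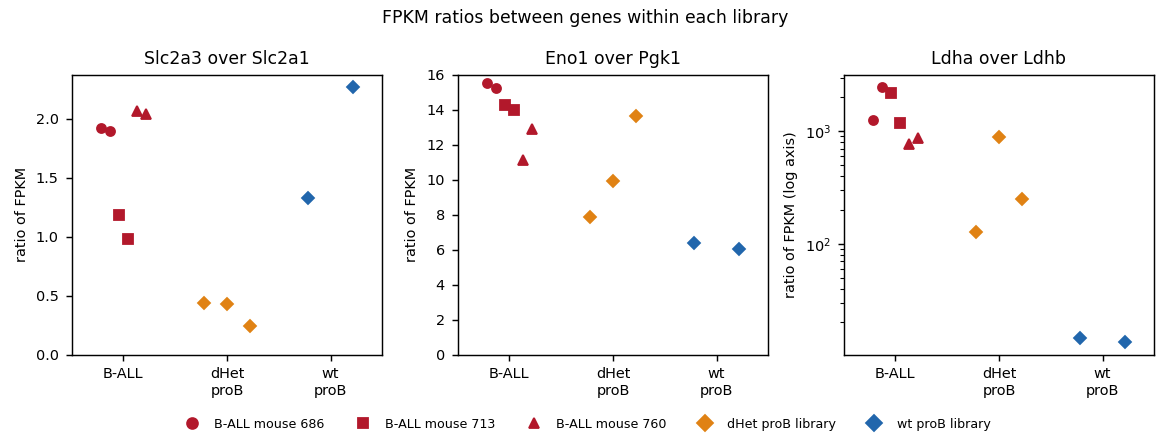
FPKM ratios of Slc2a3 over Slc2a1, Eno1 over Pgk1 (linear axes from 0) and Ldha over Ldhb (log axis) in every library, with marks as in the plot of levels. The dHet proB libraries stand lowest for the transporters (0.244 to 0.438), and the wt proB libraries lowest for both other ratios (6.05 to 6.41 and 13.4 to 14.4). Ldhb was near the floor in B-ALL (0.248 to 0.737 FPKM) and dHet proB (0.338 to 1.16 FPKM), so Ldha over Ldhb there rests on small values.

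RNA of immediate early genes and of markers of other cell types differed between the groups. Summed FPKM of 8 immediate early genes was 397 to 609 in B-ALL, 292 to 625 in dHet proB and 2003 to 2903 in wt proB. All 8 were called lower in B-ALL and in dHet proB than in wt proB, beside 10% and 6.5% of all genes. Fosb and Atf3 had passed the filter on low values through wt proB alone, so they could enter the test only by being high there. Sums of 12 myeloid markers were 29.6 to 264 FPKM in B-ALL, 14.6 to 51.8 FPKM in dHet proB, where Mpo, Elane and Adgre1 were at 0, and 542 to 563 FPKM in wt proB. Of 11 tested, 7 were lower in B-ALL and 7 in dHet proB than in wt proB, beside 10% and 6.5% of all genes. Mpo and Elane had passed the filter through wt proB alone. Sums of 6 plasmacytoid dendritic cell markers were 240 to 2259 FPKM in B-ALL, 806 to 900 FPKM in dHet proB, with Siglech and Klk1 at 0, and 1688 to 2111 FPKM in wt proB. Ly6d, at 168 to 2196 FPKM in B-ALL, 768 to 837 FPKM in dHet proB and 1284 to 1495 FPKM in wt proB, made up most of these sums and was not called. The other 5 were called lower in B-ALL and in dHet proB than in wt proB. Of these, Klk1 had passed the filter through wt proB alone. Siglech averaged 0.693 FPKM in B-ALL and 105 FPKM in wt proB, and Cox6a2 had 1.22 to 5.13 FPKM in B-ALL, 2.60 to 20.7 FPKM in dHet proB and 111 to 169 FPKM in wt proB. Sums of 8 T cell markers were 20.5 to 45.0 FPKM in B-ALL, 2.75 to 4.66 FPKM in dHet proB, with Cd3e, Cd4, Cd8a and Cd8b1 at 0, and 12.7 to 18.8 FPKM in wt proB. Thy1 in mouse 760 gave 37.8 FPKM of the highest sum. Against wt proB, Cd3d, Cd3e and Cd3g were called higher and Cd4 and Cd28 lower in B-ALL, of 8 tested. Cd3d, Cd3e and Cd3g had passed the filter on low values through B-ALL alone, and Cd28 through wt proB alone. They could thus enter the test only by being high there. Against dHet proB, 6 of the 8 were called higher in B-ALL and 0 lower, beside 14.5% and 11% of all genes. The source of these transcripts and their part in the members' differences were not tested. Proliferation markers, with sums of 1073 to 1332 FPKM in B-ALL, 689 to 1894 FPKM in dHet proB and 1188 to 1272 FPKM in wt proB, had 0 of 10 called by limma in any comparison. Of these, 1 had an unadjusted p under 0.05 in B-ALL against wt proB, 1 in B-ALL against dHet proB and 0 in dHet proB against wt proB.

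Several members have near-identical copies in the genome, between which the authors' FPKM could be split. In GENCODE M21 transcripts, 72.2% of the 50-base words of Eno1, 68.0% of those of Pgk1 and 41.5% of those of Pgam1 also occur in other genes, mainly Eno1b, Pgk1-rs7 and Pgam1-ps2. The share was 16.6% for Ldha, 13.5% for Aldoa and 7.51% for Tpi1, and 0% for Slc2a1, Slc2a3, Hk2 and Pdk1. Eno1b was listed at 0.170 to 1.56 FPKM over all libraries, at least 860 times lower than Eno1 in the same library. The copies of Pgk1 and Pgam1 had no symbol of their own in the deposited values, so a split could not be looked for. The levels of Eno1, Pgk1 and Pgam1 are uncertain for this reason. The size of that uncertainty was not measured, since a share of words is not an error of FPKM.

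The genes whose profile over the 3 mice and 5 proB libraries lay nearest to the members' mean profile were Mrpl12, Rrp15, Ergic1, Phb2, Rpl12 and Cct8, by the root mean square difference of centred log2(FPKM + 1) values among 6225 candidates. Candidates averaged at least 10 FPKM and left out predicted gene models and every gene of the lists used here. No other glycolysis gene could therefore be named as nearest. Distances of the nearest genes ran from 0.106 (Mrpl12) to 0.138 (Cct8). The members themselves ran from 0.114 (Pgam1) to 0.642 (Slc2a3), with Hk2 at 0.595. Mrpl12, a mitochondrial ribosomal protein, had 239 FPKM in B-ALL, 107 FPKM in dHet proB and 115 FPKM in wt proB. Cct8, a chaperonin subunit, had 256 FPKM in B-ALL, 119 FPKM in dHet proB and 133 FPKM in wt proB. Of the members, Pgam1 lay nearest to their mean profile and Slc2a3 farthest from it. Each member is part of that mean, so these distances are descriptive.

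**Figure D5:**
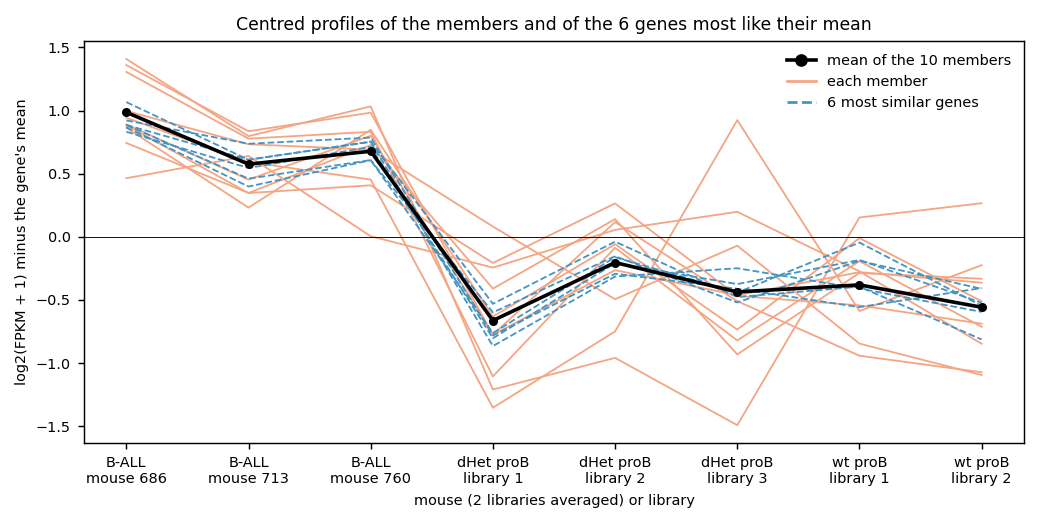
Log2(FPKM + 1) minus each gene's own mean (vertical axis) in the 3 B-ALL mice and 5 proB libraries (horizontal axis) for the mean of the members (black), each member (orange) and the 6 nearest genes (dashed blue). The member mean lies at 0.99, 0.58 and 0.68 in the mice and between -0.66 and -0.20 in the proB libraries.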

How the data were processed

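Total RNA was isolated with the RNeasy Mini Kit and made into libraries with the NEB E6420 kit, per the labels' protocols. The submitters' processing notes name build mm9, Cuffdiff, Cuffnorm 2.2.1, Cufflinks 2.2.1, STAR 2.5.3a and bcl2fastq 2.20.0.422 and 0.3.1. What annotation and what Cuffnorm scaling served is not given in the sources used here. FPKM per gene and library were deposited by the authors, so no counting error can be given. Values were taken as log2(FPKM + 1), which understates changes of low genes, and the libraries of a mouse were averaged. limma 3.58.1 (R 4.3.3) was fitted to 8 units of 3 groups with a mean-variance trend, two-sided, over the 11110 genes that reached FPKM 1 in 2 or more units. The F test among mice used 11 libraries in 5 groups and measures mice against the spread between libraries. Steps were tested on simulated data. The named genes were the 10 members, a set list of 14 pathway genes, and in each comparison up to 2 genes per direction and list, the most changed of those past the test; Adpgk was named after its values were seen. Members and lists were chosen with earlier results of these data known. Promoters (RefSeq, GRCm38.p6) and GENCODE M21 transcripts were used for letters only, since the files' build is mm9. Alternatives changed the pseudocount, filter, scaling, trend, fit, library or mouse used, and the replicate block.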

Additional observations from a re-analysis of the deposited data

How the results depend on the processing

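The members' folds in the 3 group comparisons were recomputed in 28 alternative settings, 840 values in all. Of these 758 kept their direction and side of the threshold, 47 lost a call, 25 gained one and 10 changed sign without a call. Calls in B-ALL against wt proB numbered 7, and 1 to 9 when a library or mouse was left out. With dHet proB library 2 and wt proB library 1 left out together, a setting chosen after seeing the data, they numbered 2, and 0 in dHet proB against wt proB. In B-ALL against dHet proB they stayed between 5 and 8. Calls over all genes there fell from 2832 of 11110 to 1395 of 10990 without mouse 686. They fell to 1393 of 11041 without dHet proB library 1. In dHet proB against wt proB, 1 call became 2 with a pseudocount of 0.5, quantile normalization, median centring, the mouse as a random effect or library 2 of each mouse alone, and 0 to 2 with a library or mouse left out. Among the mice, 0 calls became 1 after rescaling to TPM and 1 after quantile normalization, 9 with the 6 B-ALL libraries alone (added after seeing the data), and 0 to 4 with a library left out. Calls over all genes also moved with the library or mouse left out. These shifts, and those of the other lists, are therefore not shown to be particular to them. The cause of these shifts was not tested. Rescaling to TPM called 529 genes higher and 1695 lower in B-ALL against wt proB, where FPKM called 905 and 1112, with the median over all genes at -0.22. Against dHet proB it called 1124 and 1776, where FPKM called 1614 and 1218, with the median at -0.12, and quantile normalization called 1318 and 1517. In dHet proB against wt proB quantile normalization called 456 and 634, where FPKM called 242 and 722. The 5 members still called against wt proB under TPM did not include Slc2a1 (adjusted p = 0.0881) or Slc2a3 (0.0891). Depth is unknown, and 2 wt proB libraries limit every comparison with them.

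Deviations of same-numbered dHet proB and wt proB libraries from their group means had r of -0.00562 and 0.01 across genes. With 2 wt proB libraries these deviations mirror each other, so the check cannot decide whether the numbers mark a shared batch. For the group comparisons the replicate block was fitted together with the mouse as a random effect, which alone gave 9 members in B-ALL against wt proB, 7 in B-ALL against dHet proB and 2 in dHet proB against wt proB. With the block as well, these were 10, 7 and 1, and with the block alone 0 passed among the mice. The all-gene counts of these fits are not given here. Over the 28 settings, calls over all genes reached at most 2460 in B-ALL against wt proB and 1428 in dHet proB against wt proB. The main setting gave 2017 and 964. Library 3 of dHet proB is the only one with its number and drops out of the blocked contrasts. Against dHet proB the blocked fit lost Pgk1 (adjusted p = 0.0581) and gained Hk2 (adjusted p = 0.00304).

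Sign changes touched only values that had not passed. In B-ALL against wt proB, Slc16a1 became -0.13 under TPM and -0.079 after quantile normalization and ran from -0.26 to 0.46 over left-out libraries. There Hk1 ran from -0.23 to 0.11 and Hif1a from -0.50 to 0.032, with 0.032 when both libraries were left out. In B-ALL against dHet proB, Hif1a was 0.14 with the replicate block and ran from -0.18 to 0.14. Hk1 was 0.0079 with library 1 of each mouse alone and ran from -0.17 to 0.17, and Slc16a1 ran from -0.56 to 0.17, with 0.037 without both libraries. In dHet proB against wt proB, Hk2 was -0.22 and -0.067 with pseudocounts of 0.1 and 0.5, -0.065 under TPM and -0.65 with the replicate block, and ran from -0.65 to 0.49. Bsg was -0.017 under TPM, -0.059 after quantile normalization and -0.13 without both libraries and ran from -0.076 to 0.085. Hk1 was 0.014 after median centring and 0.046 with the block and ran from -0.15 to 0.046. Pgk1 was 0.17 with the block and ran from -0.36 to 0.17, and Gapdh was 0.24 and ran from -0.64 to 0.24. Without both libraries Pkm was -0.21 and Hif1a 0.21. Left-out ranges were -0.26 to 0.37 for Pkm, -0.45 to 0.078 for Hif1a, -1.84 to 0.56 for Myc, -0.46 to 0.035 for Tpi1 and -0.51 to 0.041 for Ldha.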
